A study of Mus musculus with 12 samples.

Results

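The 41 genes described here are the transcription factor p53 (Trp53) and its Mdm partners, genes that p53 activates, the inhibitors of the cell cycle that work beside it, and the Bcl2 family and apoptosome genes that carry out apoptosis. They were listed by symbol for their known roles, with earlier results of these data known, although no measured value enters the rule. All 41 were found among the 25514 genes of the files, and all 41 were among the 12971 genes that passed the filter on low counts. Each was well counted, from 188 counts for Gadd45a in the library where it was lowest to 18907 counts for Ccng1 in the library where it was highest.

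RNA was sequenced from conditionally immortalized mouse proximal tubule (PT) cells in 12 libraries, 3 for each of 4 groups. All cells came from male mice that carried a temperature-sensitive SV40 large T antigen (H2ts6 in the labels) and floxed alleles of Tgfbr2, the gene of TGF-β receptor II (TβRII). The TβRII flox/flox cells kept these alleles, and the TβRII-/- cells had been exposed to adenoviral Cre in culture to delete them. Each genotype was measured untreated, in normal culture medium, and after 24 h of H2O2 in serum-free medium, a model of oxidative stress. The cells of all groups were grown at 33 °C with interferon gamma, which keep the T antigen active. They were moved to 37 °C 5 days before the experiment, and the study's methods state that interferon gamma was removed to induce differentiation. How much T antigen remained active was not measured. The genotypes were compared as 2 lines of cells, so an effect of the receptor cannot be told apart from any other difference between these lines. Likewise, H2O2 and the loss of serum changed together and cannot be told apart. The dose of H2O2 reads 200 mM in the labels, whereas the methods of the study state the same figure in μM. The methods of the study state in general that experiments on cultured cells rest on independent experiments or biological replicates, but neither they nor the labels say which of these the 3 libraries of a group are. The p-values measure the spread between these libraries.

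p53 is a transcription factor that is made continuously and destroyed through the ubiquitin ligase Mdm2, itself a p53 target. When DNA is damaged or an oncogene is active, p53 escapes Mdm2 and activates genes that stop the cell cycle, repair DNA or start apoptosis. In the injured kidney tubule, p53 and its target p21 are known for cell-cycle arrest and for tubular cell death. The SV40 large T antigen binds p53 and the retinoblastoma proteins, holding both inactive, and cells that carry it often hold much p53 protein whose activity is blocked. p53 is regulated mainly as a protein, and neither protein nor its modification was measured here.

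Gene counts ranged from 15870155 to 20857618 per library. Tgfbr2 was counted in every library, at 7562 to 9248 normalized counts in untreated TβRII flox/flox cells and 6358 to 6782 in untreated TβRII-/- cells. Counts over a whole transcript do not isolate its floxed part, so these values do not check the deletion. The methods of the study state that immunoblotting and RNAseq were used to verify it. A normalized count is the count a gene would have in a library of 17351835 counts, the mean of the 12 libraries after scaling. Of 15 PT markers, 9 had at most 3 counts in every library and 5 could be tested, of which all 5 were lower in TβRII-/- cells both untreated and with H2O2. The endocytic receptor Lrp2 (megalin) had means of 17279.8 ± 2656 and 11016 ± 434 (SD, n = 3) in the untreated genotypes. Of 18 markers of other kidney cells, 9 had at most 3 counts in every library. Their summed level was 800.1 to 805 in untreated TβRII flox/flox cells, 3097 to 3379 in untreated TβRII-/- cells, 419 to 445 in H2O2-treated TβRII flox/flox cells and 905 to 1107 in H2O2-treated TβRII-/- cells, carried mostly by Acta2 and Kdr. Of the 6 that could be tested, 4 (Acta2, Kdr, Cd68 and Dcn) were higher and 2 (Pdgfrb and Col1a1) lower in TβRII-/- cells by edgeR, in both conditions. By DESeq2, 3 were higher in untreated TβRII-/- cells. Dcn was barely counted, at least 1.84-fold higher in untreated TβRII-/- cells against a floor of 3 counts per library. Of all genes, 28.0% changed between untreated genotypes and 30.7% with H2O2, by the rule given below. The part of these shifts in the values below was not tested, and in bulk RNA fewer cells that express a gene cannot be told apart from less of its RNA per cell.

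p53 recognizes DNA through a decamer, usually present as a pair. The promoters of 33 of the 41 genes were found in RefSeq (GRCm38.p6), and the 250 bases before each start were searched for an exact p53 decamer, which reads alike on both strands. Of the 33, 9 held one (27.3%), against 8.2% of all 27025 genes with a promoter. These were Aen, Bax, Ccng1, Cdkn1a, Ei24, Gadd45a, Mdm2, Polk and Trp53. A pair of decamers with at most 13 bases between them was found in 18 of the 27025 genes (0.0666%), and Cdkn1a was the only member among them. Shown here, 5′ to 3′ with the decamers in capitals, are 60 bases from the promoters of the p53 gene and of 5 of its best-known targets.
Cdkn1a chr17:29090892-29090951 (+ strand): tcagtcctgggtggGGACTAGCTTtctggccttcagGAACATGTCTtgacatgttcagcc
Mdm2 chr10:117710910-117710969 (- strand): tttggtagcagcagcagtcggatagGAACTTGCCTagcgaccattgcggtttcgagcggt
Ccng1 chr11:40755437-40755496 (- strand): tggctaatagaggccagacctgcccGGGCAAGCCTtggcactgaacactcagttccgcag
Bax chr7:45467065-45467124 (- strand): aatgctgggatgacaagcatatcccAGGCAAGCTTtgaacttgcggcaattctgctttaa
Gadd45a chr6:67037413-67037472 (- strand): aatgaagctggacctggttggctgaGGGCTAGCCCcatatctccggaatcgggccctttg
Trp53 chr11:69580259-69580318 (+ strand): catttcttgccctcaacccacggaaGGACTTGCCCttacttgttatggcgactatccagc
The pair in Cdkn1a lies 73 to 42 bases before the start, and the decamer of Gadd45a begins 40 bases before it. The best-known p53 sites of Mdm2 lie outside this window, and a match describes letters, not binding.

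Without H2O2, 9 of the 41 genes changed between genotypes (22.0%), 7 higher and 2 lower in TβRII-/- cells, where a change means an edgeR quasi-likelihood adjusted p under 0.05 and a fold of at least 1.5. Among all genes tested, 28.0% changed by the same rule, 16.3% higher and 11.8% lower. Leaving out each library in turn gave 7 to 10 members. The 7 higher genes were Plk3, Fas, Ddb2, Bcl2l1, Gadd45a, Mdm4 and Bbc3, and the 2 lower genes were Gadd45g and Gadd45b. With H2O2 in both genotypes, 7 members changed (17.1%), 5 higher and 2 lower, against 30.7% of all genes (17.3% higher and 13.4% lower). The higher genes were then Plk3, Bcl2l1, Gadd45a, Cdkn2b and Mdm4, and the lower genes were again Gadd45g and Gadd45b. Most differences were small. The median log2 fold change of the 41 genes was 0.22 untreated and 0.26 with H2O2, where the median of all genes was 0.01 and 0.02. By the adjusted p alone, with no fold limit, 30 members passed between untreated genotypes, 23 higher and 7 lower in TβRII-/- cells, against 64.7% of all genes (33.3% higher and 31.4% lower). With H2O2 31 passed, 24 higher and 7 lower, against 66.4% of all genes (35.1% higher and 31.3% lower). The 2 genotype comparisons rest on separate libraries, whereas each H2O2 comparison shares its libraries with them.

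H2O2 in serum-free medium moved few of these genes past the fold limit. In TβRII flox/flox cells 1 member changed (2.44%, against 8.24% of all genes, 5.68% higher and 2.56% lower), a fall of Gadd45g. In TβRII-/- cells 2 changed (4.88%, against 8.33%, 4.56% higher and 3.76% lower), a fall of Gadd45g and of Plk3. No member rose past the fold limit in either genotype by edgeR or by DESeq2. At an unadjusted p under 0.05, with no fold limit, 10 were higher after H2O2 in each genotype. At the same limit 17 were lower in TβRII flox/flox and 16 in TβRII-/- cells. The shares of all genes stand below for the adjusted p, a stricter limit, and not for this one. Without replicate 1 of H2O2-treated TβRII flox/flox cells, Ddb2 passed in that genotype as well (log2 fold change 0.60), which made 2 members. The median log2 fold change of the 41 genes was -0.07 in TβRII flox/flox cells and -0.10 in TβRII-/- cells, against 0.01 and 0.02 for all genes. By the adjusted p alone, 8 members were higher and 12 lower after H2O2 in TβRII flox/flox cells (all genes: 41.6%, 21.0% higher and 20.5% lower), and 9 were higher and 15 lower in TβRII-/- cells (all genes: 39.6%, 20.5% higher and 19.1% lower). The size of the H2O2 effect differed between genotypes for 7 members by the interaction test (17.1%, against 10.2% of all genes), with 6 of them more negative in TβRII-/- cells (14.6%, against 6.28%) and 1, Bcl2l11, more positive (3.9% of all genes). Without replicate 2 of H2O2-treated TβRII-/- cells 4 of the 7 passed, and Ei24, Tnfrsf10b and Gadd45g did not.

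**Figure D1:**
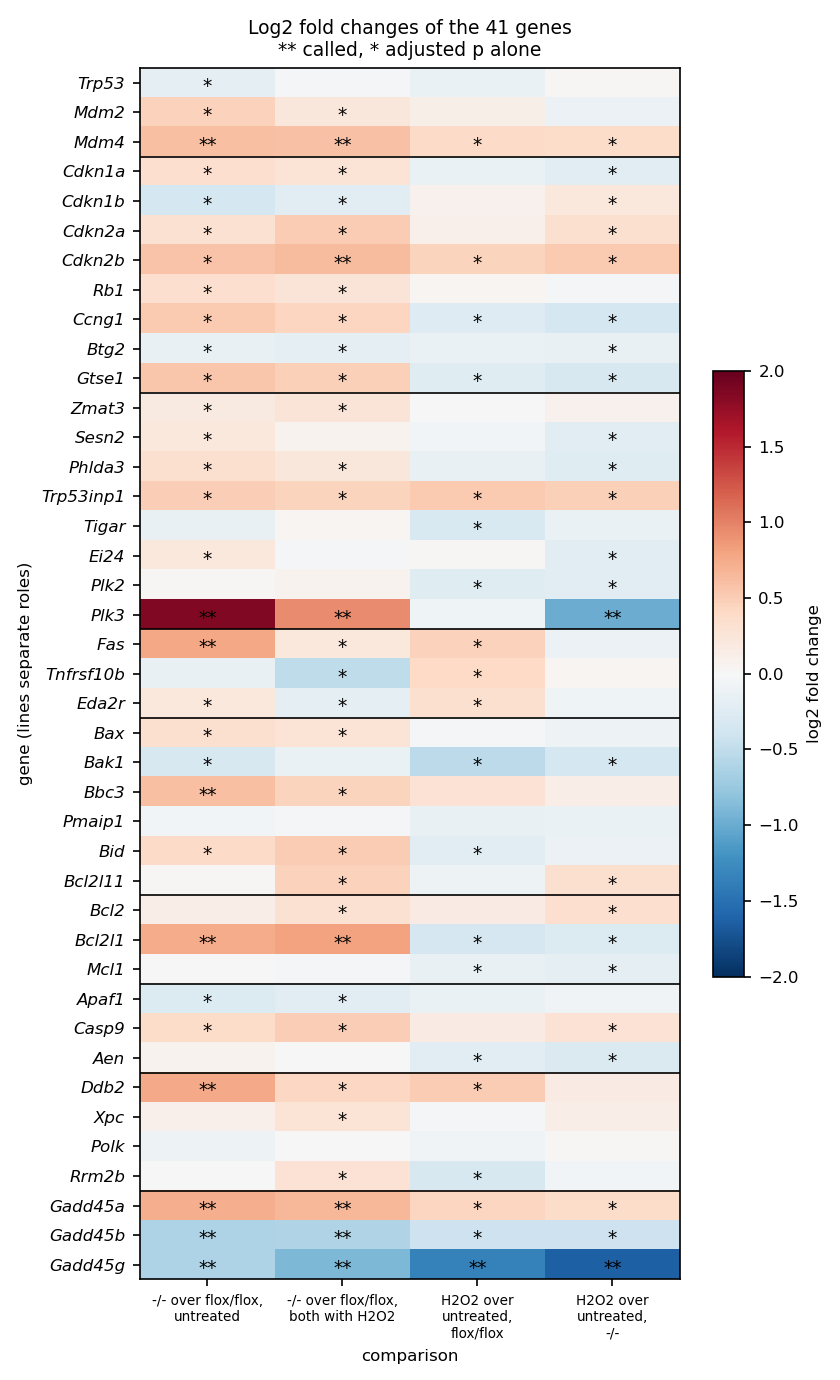
Log2 fold changes of the 41 genes (rows, in the order of their roles, separated by lines) in 4 comparisons (columns), with 2 stars where edgeR's adjusted p was under 0.05 and the fold at least 1.5 and 1 star where only the adjusted p passed. The columns for TβRII-/- over TβRII flox/flox cells hold more red than blue, Plk3 is the darkest red of the first column at 1.86, and Gadd45g is the darkest blue of the last at -1.63.

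Messenger RNA of p53 itself differed little. Normalized counts of Trp53 were 3302, 3288 and 3538 in untreated TβRII flox/flox cells, 2865, 3093 and 2958 in untreated TβRII-/- cells, 3126, 2909.9 and 3244 in H2O2-treated TβRII flox/flox cells and 3138, 2930.3 and 3011 in H2O2-treated TβRII-/- cells. The untreated groups did not overlap, and Trp53 was lower in TβRII-/- cells, with a log2 fold change of -0.18 ± 0.06 (SE, edgeR adjusted p = 0.00757), under the fold limit. With H2O2 the 2 genotypes overlapped. Mdm2, the ligase that destroys p53, was counted at 4596, 4342 and 4357 in untreated TβRII flox/flox cells, 5848, 6070.3 and 6373 in untreated TβRII-/- cells, 4419, 5129.7 and 4828 in H2O2-treated TβRII flox/flox cells and 5968, 5372 and 5461 in H2O2-treated TβRII-/- cells. Every TβRII-/- library lay above every TβRII flox/flox library, and the untreated difference was 1.38-fold, a log2 fold change of 0.46 ± 0.06 (adjusted p = 1.68e-07). With H2O2 it was 0.22 ± 0.06 (adjusted p = 0.00246), so Mdm2 passed the adjusted p in both conditions and the fold limit in neither.

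Mdm4, the Mdm2 relative that blocks p53's activating domain, differed most of the 3. It was counted at 1589, 1338 and 1530.3 in untreated TβRII flox/flox cells, 2122, 2356 and 2318 in untreated TβRII-/- cells, 1722, 2011 and 2079 in H2O2-treated TβRII flox/flox cells and 2937, 2782 and 3046 in H2O2-treated TβRII-/- cells. The TβRII-/- libraries stood above the TβRII flox/flox libraries of the same treatment, and the groups did not overlap. Mdm4 rose 1.52-fold in untreated TβRII-/- cells (log2 fold change 0.61 ± 0.07, edgeR adjusted p = 6.12e-09) and 1.51-fold with H2O2 (0.59 ± 0.07, adjusted p = 5.64e-09). Both values sit at the fold limit. The untreated fold fell under it without replicate 2 of untreated TβRII flox/flox cells (0.53) and without replicate 2 of untreated TβRII-/- cells (0.58), and the value with H2O2 did so in 9 of 21 alternatives (0.48 to 0.58), DESeq2 among them, with adjusted p-values under 0.05 throughout. Within each genotype Mdm4 was also higher after H2O2, by 0.38 in TβRII flox/flox and 0.37 in TβRII-/- cells on the log2 scale, under the fold limit.

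Of the 8 cell-cycle inhibitors and related regulators, none passed the fold limit between untreated genotypes by edgeR or DESeq2, although all 8 had an unadjusted p under 0.05 (6 higher and 2 lower), and 1, Cdkn2b, passed it with H2O2. At the stricter adjusted p, 64.7% of all genes passed between untreated genotypes. Per kilobase of transcript, Cdkn1a, Cdkn2a and Ccng1 were the highest of all 41 genes in untreated TβRII flox/flox cells, at 4556, 3987 and 3506 normalized counts per kilobase, and Bcl2 was the lowest at 33.4. Cdkn1a encodes p21, the inhibitor of cyclin-dependent kinases through which p53 stops the cycle. Its normalized counts were 8969, 9677 and 9783 in untreated TβRII flox/flox cells, 12161, 11762 and 12066 in untreated TβRII-/- cells, 8488, 8885 and 8533 in H2O2-treated TβRII flox/flox cells and 11036, 10593 and 9560.4 in H2O2-treated TβRII-/- cells. The genotypes did not overlap in either condition, with log2 fold changes of 0.34 ± 0.06 untreated (adjusted p = 2.2e-05) and 0.27 ± 0.06 with H2O2 (adjusted p = 0.000428), both under the fold limit. It was not higher after H2O2 in either genotype, with log2 fold changes of -0.13 in TβRII flox/flox cells (adjusted p = 0.0901) and -0.21 in TβRII-/- cells (adjusted p = 0.0097).

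Ccng1 encodes cyclin G1, a p53 target that recruits a phosphatase to Mdm2. It was counted at 11847, 11734 and 13363 in untreated TβRII flox/flox cells, 17232, 18305 and 17604 in untreated TβRII-/- cells, 10232, 10254 and 10343 in H2O2-treated TβRII flox/flox cells and 14581, 14402 and 12503 in H2O2-treated TβRII-/- cells. The order of the groups was that of Cdkn1a, highest in untreated TβRII-/- and lowest in H2O2-treated TβRII flox/flox cells. The difference between genotypes was 1.44-fold untreated (log2 fold change 0.52 ± 0.07, adjusted p = 4.83e-08) and 0.43 ± 0.07 on the log2 scale with H2O2 (adjusted p = 1.7e-06). After H2O2 it was lower in both genotypes, with log2 fold changes of -0.26 in TβRII flox/flox and -0.36 in TβRII-/- cells. Gtse1, which carries p53 out of the nucleus in G2 phase, had means of 2011, 2949, 1707 and 2365 in the same order of groups, a genotype difference of 0.55 untreated and 0.47 with H2O2. The 24 tested genes nearest to Gtse1 on its chromosome had medians of 0.52 and 0.61 in these comparisons, close to its own values, and whether they are related was not tested.

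**Figure D2:**
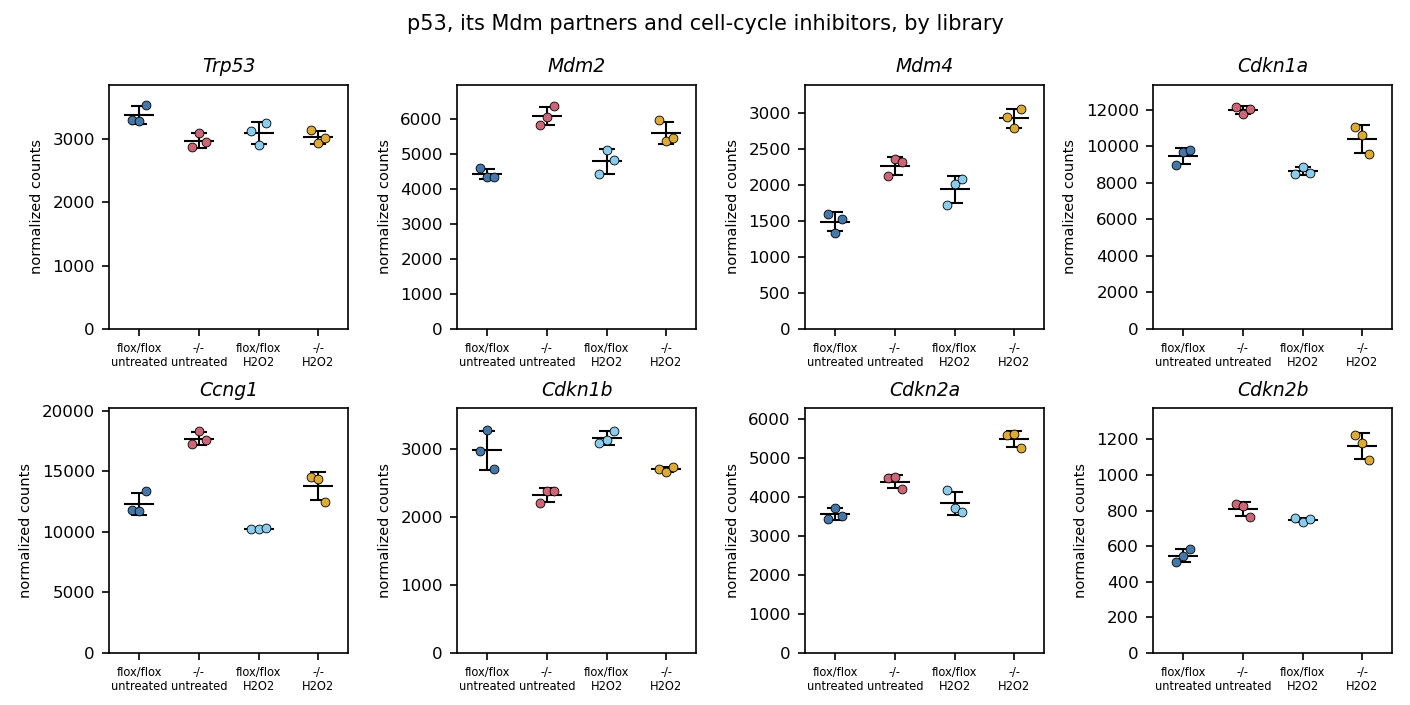
Normalized counts (vertical axes, from 0) of Trp53, Mdm2, Mdm4, Cdkn1a, Ccng1, Cdkn1b, Cdkn2a and Cdkn2b in the 4 groups, with a point for each library, a long bar for the mean and short bars for 1 SD (n = 3). Except for Trp53 and Cdkn1b, the TβRII-/- points lie above the TβRII flox/flox points of the same treatment.

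The Cdkn2a and Cdkn2b genes lie side by side on chromosome 4 and encode inhibitors of Cdk4 and Cdk6, and Cdkn2a also encodes Arf, which blocks Mdm2. Cdkn2a was counted at 3449.6, 3730.0 and 3526 in untreated TβRII flox/flox cells, 4483, 4511 and 4207 in untreated TβRII-/- cells, 4181, 3724 and 3632 in H2O2-treated TβRII flox/flox cells and 5591, 5632 and 5257 in H2O2-treated TβRII-/- cells. TβRII-/- cells were higher in both conditions, by 0.30 ± 0.06 untreated (adjusted p = 8.59e-05) and 0.51 ± 0.06 with H2O2 (adjusted p = 1.01e-08) on the log2 scale, under the fold limit. These counts belong to the transcript whose first exon lies farther upstream, the one that encodes Arf, but it shares its later exons with the p16Ink4a transcript. The ratio of the counts of the first to those of the second was 1.38 to 1.53 over the 12 libraries. Reads in the shared exons counted for both, so the 2 proteins' messages were not separated.

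Cdkn2b (p15Ink4b) was counted at 511, 546 and 583 in untreated TβRII flox/flox cells, 837, 825 and 765 in untreated TβRII-/- cells, 757, 734 and 752 in H2O2-treated TβRII flox/flox cells and 1225, 1180.2 and 1083 in H2O2-treated TβRII-/- cells. Untreated TβRII flox/flox cells were lowest, H2O2-treated TβRII-/- cells highest, and the 2 middle groups came close without overlapping. It rose 1.56-fold in TβRII-/- cells with H2O2 (log2 fold change 0.64 ± 0.07, adjusted p = 5.66e-10). The untreated difference, 1.48-fold (0.56 ± 0.07, adjusted p = 2.83e-08), stayed just under the fold limit and passed it at 0.60 without replicate 3 of either untreated group. The H2O2 effect was 0.45 in TβRII flox/flox cells and 0.52 in TβRII-/- cells (adjusted p = 7.29e-06 and 1.48e-07), under the fold limit in both. Of the rest of the group, Cdkn1b (p27) was lower in TβRII-/- cells, with log2 fold changes of -0.36 untreated and -0.23 with H2O2. Rb1, the retinoblastoma protein that restrains entry into S phase, was at 0.34 and 0.26 in the same comparisons, and the antiproliferative gene Btg2 at -0.15 and -0.17, all under the fold limit.

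Of the 8 p53 targets that serve feedback, stress and metabolism, Plk3 changed and the others did not reach the fold limit. Plk3 is a polo-like kinase induced by stress that can phosphorylate p53. It was counted at 283, 227 and 259 in untreated TβRII flox/flox cells, 959, 909 and 926 in untreated TβRII-/- cells, 258, 242 and 228 in H2O2-treated TβRII flox/flox cells and 487, 448 and 470.4 in H2O2-treated TβRII-/- cells. Both TβRII-/- groups stood above all TβRII flox/flox libraries, and the untreated one was highest. Plk3 rose 3.63-fold in untreated TβRII-/- cells (log2 fold change 1.86 ± 0.08, adjusted p = 1.62e-19) and 1.93-fold with H2O2 (0.95 ± 0.09, adjusted p = 1.75e-11). H2O2 lowered it 1.99-fold in TβRII-/- cells (-0.99 ± 0.07, adjusted p = 2.29e-12). In TβRII flox/flox cells the treated and untreated libraries overlapped (-0.08 ± 0.09, adjusted p = 0.52), and the difference between the 2 responses was -0.91 ± 0.12 (adjusted p = 3.35e-06). All Plk3 calls held without any 1 library. The 24 tested genes nearest to Plk3 on its chromosome had a median log2 fold change of -0.01 between untreated genotypes.

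The Plk3 promoter is shown because this gene had the largest change between genotypes, and that of Gadd45g because it had the largest change with H2O2. Each is given as the 150 bases before its RefSeq start (GRCm38.p6), 5′ to 3′, with matches to TGACGTNA (the CREB/ATF motif), CCAAT and TATAAA in capitals. Each motif was searched on both strands.
Plk3 chr4:117133964-117134113 (- strand): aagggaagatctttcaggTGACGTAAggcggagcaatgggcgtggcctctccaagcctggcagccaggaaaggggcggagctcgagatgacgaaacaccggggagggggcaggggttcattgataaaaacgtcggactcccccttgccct
Gadd45g chr13:51846525-51846674 (+ strand): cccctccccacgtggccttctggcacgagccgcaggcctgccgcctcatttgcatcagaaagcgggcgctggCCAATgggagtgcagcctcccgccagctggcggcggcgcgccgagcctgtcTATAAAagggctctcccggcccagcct
TGACGTNA was found in the 250 bases before the start of Plk3, Plk2, Btg2 and Cdkn2b, 4 of the 33 members with a promoter (12.1%), against 2.92% of all genes. TATAAA was found in 4 of 33 (12.1%, against 14.3% of all genes) and CCAAT in 15 of 33 (45.5%, against 37.5%). No p53 decamer was found in the 250 bases before the start of Plk3 or Gadd45g.

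Plk2, its relative, was counted at means of 6519 ± 278 and 6653 ± 96.0 (SD, n = 3) in the untreated genotypes and was lower after H2O2, with log2 fold changes of -0.25 in TβRII flox/flox and -0.21 in TβRII-/- cells. Trp53inp1, a p53 target that promotes apoptosis and autophagy, had means of 3221 ± 91.9 in untreated TβRII flox/flox cells, 4532 ± 159.5 in untreated TβRII-/- cells, 4607 ± 99.5 in H2O2-treated TβRII flox/flox cells and 6288 ± 448 in H2O2-treated TβRII-/- cells. It was higher with each change, by 0.49 and 0.45 between genotypes and by 0.52 and 0.47 with H2O2 (edgeR adjusted p from 1.98e-08 to 1.73e-07), each time under the fold limit. Zmat3, an RNA-binding p53 target, was higher in TβRII-/- cells by 0.18 and 0.26, and Phlda3, an inhibitor of Akt, by 0.33 and 0.23. Sesn2, which restrains mTORC1 and guards against oxidants, was higher by 0.22 in untreated TβRII-/- cells and lower after H2O2 in that genotype (log2 fold change -0.20). Tigar, which diverts glucose from glycolysis, was lower after H2O2 in TβRII flox/flox cells (log2 fold change -0.31). Ei24, a p53-induced protein of the endoplasmic reticulum, was counted at 3948, 4375 and 3950.0 in untreated TβRII flox/flox cells, 4641, 4902 and 4734 in untreated TβRII-/- cells, 3935, 4341 and 4252 in H2O2-treated TβRII flox/flox cells and 4184, 3982 and 3989 in H2O2-treated TβRII-/- cells. It was highest in untreated TβRII-/- cells, and the difference between the H2O2 responses was -0.26 ± 0.08 (adjusted p = 0.0445), a call lost in 11 of 19 alternatives.

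All 3 death receptors responded to H2O2 differently in the 2 genotypes. Fas, the receptor of Fas ligand and a p53 target, was counted at 390.3, 358 and 351 in untreated TβRII flox/flox cells, 602, 679.6 and 607 in untreated TβRII-/- cells, 447, 557 and 502 in H2O2-treated TβRII flox/flox cells and 564, 574 and 598 in H2O2-treated TβRII-/- cells. The untreated TβRII flox/flox libraries were lowest, and the H2O2-treated TβRII flox/flox libraries came up to just below the TβRII-/- levels. Fas rose 1.72-fold in untreated TβRII-/- cells (log2 fold change 0.78 ± 0.08, adjusted p = 7.83e-10), whereas with H2O2 the difference was 0.20 ± 0.08 (adjusted p = 0.0244). The H2O2 effect was 0.45 ± 0.09 in TβRII flox/flox cells (adjusted p = 7.15e-05) and -0.12 ± 0.08 in TβRII-/- cells (adjusted p = 0.212), and the difference between them was -0.58 ± 0.11 (adjusted p = 0.00113). The 24 tested genes nearest to Fas on its chromosome had a median log2 fold change of 0.42 between untreated genotypes, in the direction of Fas itself. With H2O2 their median was 0.44, above the value of Fas, and whether they are related was not tested.

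Tnfrsf10b, the mouse TRAIL receptor, was counted at 2668, 2455 and 2179.9 in untreated TβRII flox/flox cells, 2288, 2232 and 2081 in untreated TβRII-/- cells, 2999, 3413 and 3188 in H2O2-treated TβRII flox/flox cells and 2262, 2146 and 2368 in H2O2-treated TβRII-/- cells. Only the H2O2-treated TβRII flox/flox libraries stood apart, above the other groups. The H2O2 effect was 0.39 ± 0.07 in TβRII flox/flox cells (adjusted p = 2.04e-05) and 0.04 ± 0.07 in TβRII-/- cells (adjusted p = 0.694), a difference of -0.36 ± 0.10 (adjusted p = 0.014) that did not pass without replicate 2 of H2O2-treated TβRII-/- cells (adjusted p = 0.0561). Eda2r, the X-linked ectodysplasin A2 receptor, was counted at 3315, 3119 and 3129 in untreated TβRII flox/flox cells, 3474, 3861 and 3741 in untreated TβRII-/- cells, 3790.3, 4192 and 3907 in H2O2-treated TβRII flox/flox cells and 3558, 3527 and 3405 in H2O2-treated TβRII-/- cells. The H2O2-treated TβRII flox/flox libraries were again highest on average, with an H2O2 effect of 0.31 ± 0.06 in TβRII flox/flox (adjusted p = 8.53e-05) and -0.08 ± 0.06 in TβRII-/- cells (adjusted p = 0.306), and the difference was -0.39 ± 0.08 (adjusted p = 0.00237). None of the 3 receptors passed the fold limit with H2O2 in either genotype, by edgeR or DESeq2, although 3 were higher in TβRII flox/flox cells and 0 in TβRII-/- cells at an unadjusted p under 0.05. At the stricter adjusted p, 21.0% and 20.5% of all genes were higher in these genotypes.

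**Figure D3:**
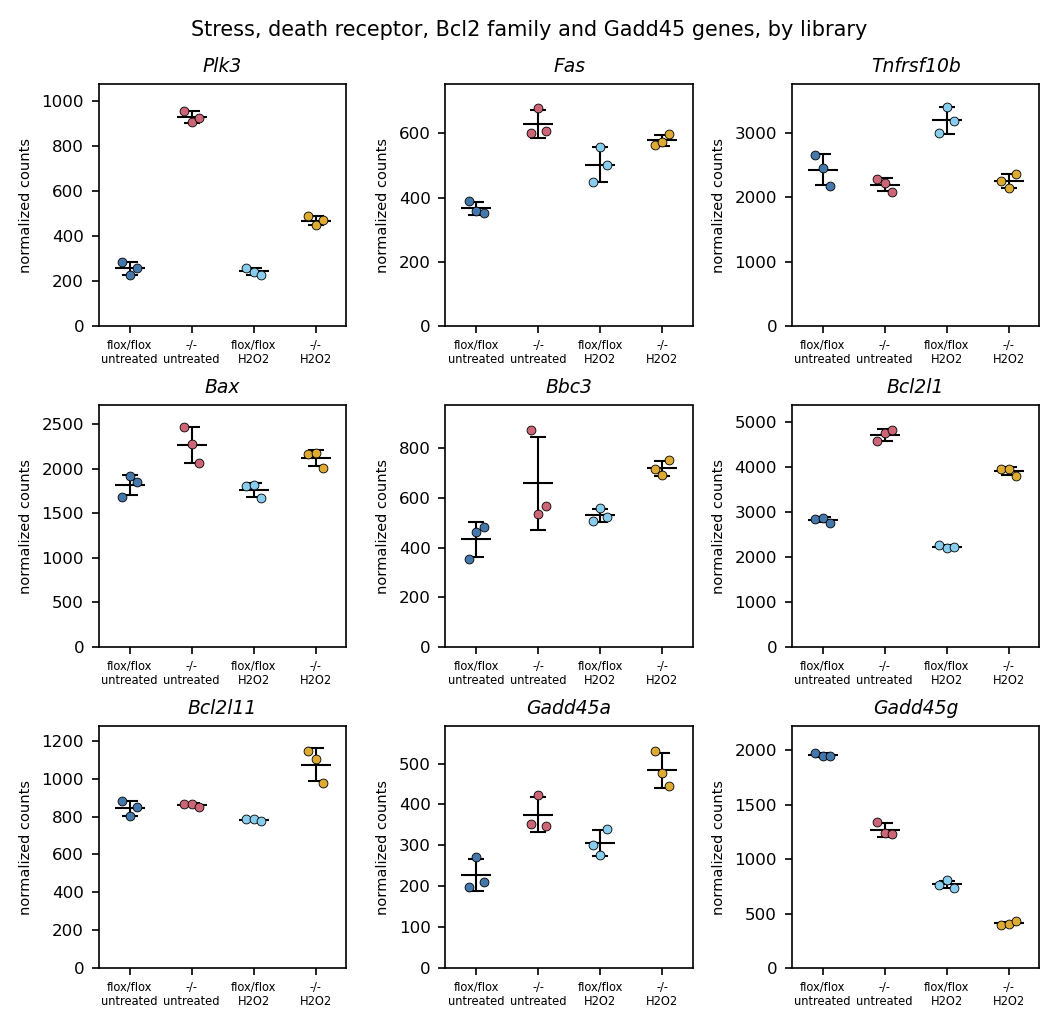
Normalized counts (vertical axes, from 0) of Plk3, Fas, Tnfrsf10b, Bax, Bbc3, Bcl2l1, Bcl2l11, Gadd45a and Gadd45g in the 4 groups, with a point for each library, a long bar for the mean and short bars for 1 SD (n = 3). Plk3 and Bcl2l1 separate the genotypes in both conditions, Gadd45g steps down from group to group, and for Bbc3 1 untreated TβRII-/- library, at 874, lies far above the other 2 of its group.

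Among the 6 proapoptotic Bcl2 family genes, Bbc3 changed between untreated genotypes and none changed with H2O2 by edgeR or DESeq2 (4 and 3 had an unadjusted p under 0.05 in TβRII flox/flox and TβRII-/- cells). Of all genes, 41.6% and 39.6% passed the stricter adjusted p with H2O2 in these genotypes. Bax, which permeabilizes the outer mitochondrial membrane, was counted at 1688, 1916 and 1854 in untreated TβRII flox/flox cells, 2469, 2278 and 2069 in untreated TβRII-/- cells, 1806, 1816 and 1674 in H2O2-treated TβRII flox/flox cells and 2173, 2182 and 2014 in H2O2-treated TβRII-/- cells. TβRII-/- libraries were higher without overlap, by 0.32 ± 0.07 untreated (adjusted p = 8.3e-05) and 0.27 ± 0.07 with H2O2 (adjusted p = 0.000675), under the fold limit, and H2O2 left the groups of each genotype overlapping. The 24 tested genes nearest to Bax had medians of 0.17 untreated and 0.23 with H2O2, and whether they are related was not tested. Bak1, which permeabilizes the same membrane, ran opposite to Bax. Its means were 3119 ± 195, 2507 ± 163, 2168 ± 45.3 and 1974 ± 81.1 (SD, n = 3) in untreated TβRII flox/flox, untreated TβRII-/-, H2O2-treated TβRII flox/flox and H2O2-treated TβRII-/- cells. Its log2 fold change was -0.31 between untreated genotypes, -0.52 after H2O2 in TβRII flox/flox cells and -0.35 after H2O2 in TβRII-/- cells, all under the fold limit.

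The BH3-only genes, whose proteins trigger Bax and Bak1 or disable their inhibitors, differed from one another. Bbc3 (Puma), a direct p53 target, was counted at 352, 464 and 483 in untreated TβRII flox/flox cells, 874, 534 and 569.6 in untreated TβRII-/- cells, 508, 559.9 and 525 in H2O2-treated TβRII flox/flox cells and 718, 691 and 752 in H2O2-treated TβRII-/- cells. Replicate 1 of untreated TβRII-/- cells stood far above the other 2 of its group. Bbc3 rose 1.52-fold in untreated TβRII-/- cells (log2 fold change 0.60 ± 0.12, adjusted p = 6.11e-05), but the value was 0.35 without that library and 0.47 without replicate 1 of untreated TβRII flox/flox cells, both under the fold limit. Summed over its transcripts, Bbc3 was at 0.52 (edgeR adjusted p = 0.0145), also under that limit. Bcl2l11 (Bim), controlled mainly by other factors, was counted at 881, 802 and 849.6 in untreated TβRII flox/flox cells, 867, 868 and 852 in untreated TβRII-/- cells, 785, 788 and 777 in H2O2-treated TβRII flox/flox cells and 1146, 1102 and 978 in H2O2-treated TβRII-/- cells. The H2O2-treated TβRII-/- libraries alone stood higher. The H2O2 effect was -0.11 ± 0.07 in TβRII flox/flox (adjusted p = 0.21) and 0.32 ± 0.07 in TβRII-/- cells (adjusted p = 0.000221), a difference of 0.43 ± 0.09 (adjusted p = 0.00301). Bid, which links death receptors to mitochondria, was higher in TβRII-/- cells by 0.38 untreated and 0.50 with H2O2, under the fold limit. Pmaip1 (Noxa), often among the most p53-responsive genes, passed the adjusted p in none of the 4 comparisons or the interaction, with log2 fold changes between -0.14 and -0.04 in the comparisons.

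Of the 3 antiapoptotic genes, Bcl2l1 (Bcl-xL) changed. Bcl2l1 was counted at 2854, 2869.9 and 2767 in untreated TβRII flox/flox cells, 4578, 4757 and 4817 in untreated TβRII-/- cells, 2279, 2191 and 2232 in H2O2-treated TβRII flox/flox cells and 3967, 3954 and 3809 in H2O2-treated TβRII-/- cells. The genotypes were far apart in both conditions and the replicates close together. Bcl2l1 rose 1.67-fold in untreated TβRII-/- cells (log2 fold change 0.74 ± 0.06, adjusted p = 2.55e-13) and 1.75-fold with H2O2 (0.81 ± 0.06, adjusted p = 3.05e-14), and both calls held in all 21 alternatives. After H2O2 its log2 fold change was -0.34 in TβRII flox/flox and -0.27 in TβRII-/- cells, under the fold limit. The 24 tested genes nearest to Bcl2l1 had a median log2 fold change of 0.34 between untreated genotypes and 0.37 with H2O2, also upward. Bcl2 had means of 271 ± 11.2 in H2O2-treated TβRII flox/flox and 335 ± 20.7 in H2O2-treated TβRII-/- cells, a log2 fold change of 0.30. Between untreated genotypes it was 0.14, which did not pass the adjusted p. Mcl1, a short-lived survival protein, was lower after H2O2, with log2 fold changes of -0.15 and -0.19 in TβRII flox/flox and TβRII-/- cells.

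None of the 3 apoptosome and nuclease genes passed the fold limit by edgeR or DESeq2, and 2 of the 3 had an unadjusted p under 0.05 in each of the 4 comparisons. By the stricter adjusted p, 39.6% to 66.4% of all genes passed in these comparisons. Apaf1, the scaffold of the apoptosome, had log2 fold changes between genotypes of -0.27 untreated and -0.21 with H2O2, and Casp9, the caspase it activates, of 0.37 and 0.50. Aen, a nuclease induced by p53, had -0.23 after H2O2 in TβRII flox/flox cells and -0.29 in TβRII-/- cells. Of the 4 genes of DNA repair and nucleotide supply, Ddb2, which recognizes ultraviolet damage, changed. Its normalized counts were 366, 382 and 299 in untreated TβRII flox/flox cells, 573, 598 and 594 in untreated TβRII-/- cells, 439, 498 and 557 in H2O2-treated TβRII flox/flox cells and 632, 631 and 725 in H2O2-treated TβRII-/- cells. Untreated TβRII flox/flox libraries were the lowest. Ddb2 rose 1.69-fold in untreated TβRII-/- cells (log2 fold change 0.76 ± 0.09, adjusted p = 1.28e-08), and the difference with H2O2 was 0.41 ± 0.09 (adjusted p = 9.39e-05). After H2O2 it was higher by 0.51 ± 0.09 in TβRII flox/flox cells (adjusted p = 5.24e-05) and by 0.17 ± 0.08 in TβRII-/- cells (adjusted p = 0.111), and the interaction did not pass (-0.34 ± 0.13, adjusted p = 0.0792). The 24 tested genes nearest to Ddb2 had a median of 0.27 between untreated genotypes and 0.35 with H2O2. Xpc, another recognition factor, was higher in TβRII-/- cells by 0.27 with H2O2, and Rrm2b, a ribonucleotide reductase subunit that p53 induces, by 0.29, both under the fold limit. The 24 tested genes nearest to Rrm2b had a median of 0.47 in that comparison, above its own value. Polk, a translesion polymerase, passed the adjusted p in no comparison.

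The Gadd45 family, which couples stress to the p38 and Jnk kinases and to DNA repair, was the role in which all members changed between genotypes, and they did not move alike. Gadd45a, the member p53 induces, was counted at 198, 272 and 211 in untreated TβRII flox/flox cells, 352, 424 and 347 in untreated TβRII-/- cells, 300.3, 276 and 339 in H2O2-treated TβRII flox/flox cells and 529.8, 477 and 445 in H2O2-treated TβRII-/- cells. Levels were on average lowest in untreated TβRII flox/flox and highest in H2O2-treated TβRII-/- cells. Gadd45a rose 1.66-fold in untreated TβRII-/- cells (log2 fold change 0.73 ± 0.11, adjusted p = 8.83e-07) and 1.59-fold with H2O2 (0.67 ± 0.10, adjusted p = 9.21e-07). The value with H2O2 fell to 0.57, under the fold limit, without replicate 2 of H2O2-treated TβRII flox/flox cells. After H2O2 it was higher by 0.43 and 0.37 in TβRII flox/flox and TβRII-/- cells, under the fold limit.

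Gadd45b ran the other way. Its counts were 883, 877 and 862 in untreated TβRII flox/flox cells, 556, 525 and 631 in untreated TβRII-/- cells, 619, 664 and 682 in H2O2-treated TβRII flox/flox cells and 376, 449.7 and 461 in H2O2-treated TβRII-/- cells. The TβRII-/- libraries lay below the TβRII flox/flox libraries of the same treatment. Gadd45b fell 1.53-fold in untreated TβRII-/- cells (log2 fold change -0.61 ± 0.08, adjusted p = 2.95e-08) and 1.53-fold with H2O2 (-0.61 ± 0.08, adjusted p = 6.94e-08). These values lay close to the fold limit, and they were -0.56 without replicate 2 of untreated TβRII-/- cells and -0.52 without replicate 1 of H2O2-treated TβRII-/- cells, in the respective comparisons. Gadd45g was the only one of the 41 genes that changed in all 4 comparisons, with counts of 1976, 1949.6 and 1947 in untreated TβRII flox/flox cells, 1344, 1240.2 and 1227 in untreated TβRII-/- cells, 758, 805 and 739 in H2O2-treated TβRII flox/flox cells and 395, 408 and 428 in H2O2-treated TβRII-/- cells. The 4 groups formed 4 separate levels in that order, and no libraries of different groups overlapped. Gadd45g fell 1.54-fold in untreated TβRII-/- cells (log2 fold change -0.62 ± 0.06, adjusted p = 6.74e-11) and 1.87-fold with H2O2 (-0.90 ± 0.07, adjusted p = 2.66e-13). H2O2 lowered it 2.55-fold in TβRII flox/flox cells (-1.35 ± 0.06, adjusted p = 1.54e-17) and 3.1-fold in TβRII-/- cells (-1.63 ± 0.07, adjusted p = 4.95e-19). These 4 calls held in all 21 alternatives. The difference between the 2 responses was -0.28 ± 0.09 (adjusted p = 0.0429), a call lost in 9 of 19 alternatives.

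**Figure D4:**
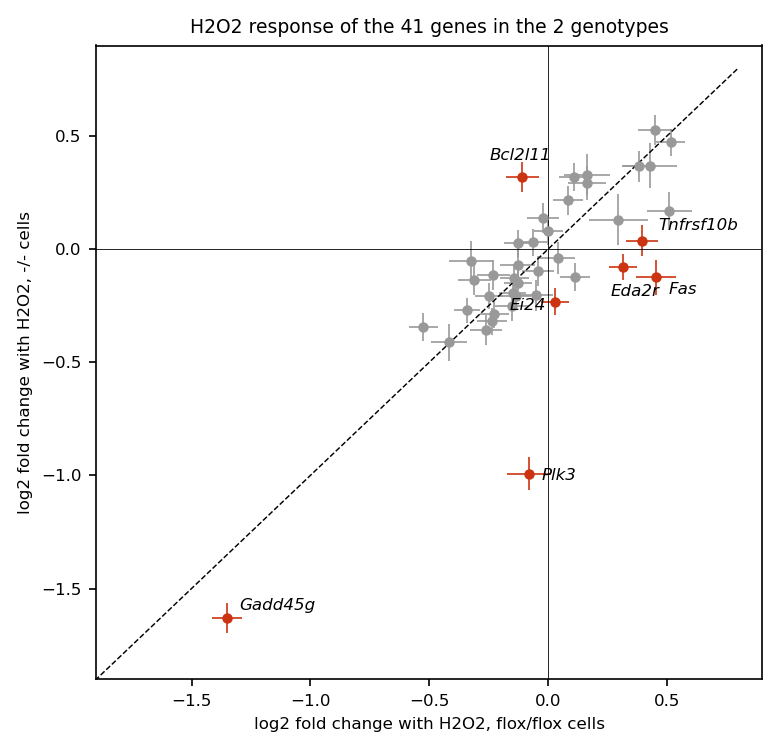
Log2 fold change with H2O2 of each of the 41 genes in TβRII flox/flox cells (horizontal axis) and TβRII-/- cells (vertical axis), with error bars of 1 SE and a dashed line of equal change. The 7 genes in red differed between genotypes by edgeR's interaction test, and Plk3 lies farthest from the line, at -0.08 and -0.99.

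Genes of the same pathways outside the 41 were read from lists that were likewise chosen with earlier results of these data known. Their counts stand against the same shares of all genes, 28.0% called between untreated genotypes, 30.7% with H2O2, 8.24% and 8.33% for H2O2 in TβRII flox/flox and TβRII-/- cells and 10.2% for the interaction. Counts at an unadjusted p under 0.05 have no such share. By the adjusted p alone, a stricter limit, 64.7% of all genes passed between untreated genotypes. For H2O2 it was 41.6% in TβRII flox/flox and 39.6% in TβRII-/- cells. Of 14 regulators of p53, 13 were tested. In untreated TβRII-/- cells 3 rose (Trp63, Rchy1 and the damage kinase Atm) and 1 fell (Hipk2), and with H2O2 the first 3 rose. None changed with H2O2 in either genotype by edgeR or DESeq2 (4 and 5 had an unadjusted p under 0.05 in TβRII flox/flox and TβRII-/- cells). Trp63, the p53 relative of epithelial stem cells, was at 0 in all untreated TβRII flox/flox libraries and at 11.5, 9.68 and 13.4 in untreated TβRII-/- libraries. Against a floor of 3 counts per library, it was at least 3.84-fold higher. Rchy1, another ubiquitin ligase of p53, had means of 456 ± 55.2 and 832 ± 26.6 in the untreated genotypes, and Hipk2, a kinase that activates p53, had 5471 ± 605 and 3171 ± 303.

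Of 25 further p53 targets, 24 were tested, and 9 rose and 2 fell in untreated TβRII-/- cells (all genes: 16.3% higher and 11.8% lower), with a median log2 fold change of 0.43. With H2O2, 9 rose and 3 fell (all genes: 17.3% higher and 13.4% lower). Several of the largest are also known targets of other pathways. Igfbp3, which binds insulin-like growth factors, was at 0 in all untreated TβRII flox/flox libraries and at 65.9, 66.8 and 60.3 in untreated TβRII-/- libraries, at least 21.4-fold higher. Ccnd1, the cyclin D1 partner of Cdk4, rose from 1622 ± 99.2 to 9461 ± 188 (log2 fold change 2.54 ± 0.07, adjusted p = 9.5e-26). H2O2 lowered Ccnd1 in each genotype, with log2 fold changes of -1.51 in TβRII flox/flox cells and -0.92 in TβRII-/- cells. The H2O2 response of 7 of the 24 differed between genotypes (all genes: 10.2%), 6 of them more negative in TβRII-/- cells (all genes: 6.28%), among them the desmosomal apoptosis gene Perp (-0.58 ± 0.09, adjusted p = 3.43e-05), which was counted at means of 3437 ± 195 and 2301 ± 113 in untreated and H2O2-treated TβRII-/- cells.

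Of 11 other Bcl2 family genes 7 were tested, and 2 fell in TβRII-/- cells in both conditions. Bmf, a BH3-only gene, had 205, 226 and 179.6 normalized counts in untreated TβRII flox/flox and 16.7, 16.5 and 6.70 in untreated TβRII-/- libraries. It fell in TβRII-/- cells (log2 fold change -3.93 ± 0.22, adjusted p = 1.47e-16), and rose by 1.29 after H2O2 in TβRII-/- cells to a mean of 31.9 ± 9.76. Bok, a relative of Bax, fell from 1099.5 ± 58.9 to 393 ± 36.0 (-1.49 ± 0.08, adjusted p = 1.16e-17). None of 16 caspases and their regulators changed between untreated genotypes by edgeR or DESeq2. Of the 16, 11 had an unadjusted p under 0.05, where 64.7% of all genes passed the stricter adjusted p. Casp8, which death receptors activate, had means of 731 ± 97.3 and 871 ± 9.45 in the untreated genotypes. With H2O2, the death receptor adaptor Tradd rose and Htra2, a protease released from mitochondria, fell in TβRII-/- cells. Htra2 also fell after H2O2 in TβRII-/- cells, from a mean of 1201 to 759.

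Of 12 further cell-cycle inhibitors and pocket proteins 11 were tested. In untreated TβRII-/- cells 5 rose and none fell, led by Cdkn1c (p57), from 83.4 ± 3.02 to 178 ± 15.2 (1.09 ± 0.15, adjusted p = 9.5e-08). Cdkn3, a phosphatase of Cdk2 that peaks with mitosis, differed most in its response, at means of 155 ± 20.6 and 192 ± 28.3 in untreated and H2O2-treated TβRII flox/flox cells and 259 ± 22.2 and 157 ± 19.6 in TβRII-/- cells. Its interaction was -1.04 ± 0.18 (adjusted p = 0.000178). Of 24 proliferation genes, 2 rose in untreated TβRII-/- cells, Pcna and Tyms, both used in DNA synthesis. H2O2 changed none of them in TβRII flox/flox cells by edgeR or DESeq2, though 15 were lower at an unadjusted p under 0.05, with a median log2 fold change of -0.17. Of all genes, 20.5% were lower there by the stricter adjusted p. In TβRII-/- cells 8 fell (all genes: 3.76%) and none rose, with a median of -0.42, led by Birc5 (survivin, from 1789 ± 80.8 to 1074 ± 73.3), Aurka and Aurkb. The response of 13 of the 24 differed between genotypes (all genes: 10.2%), 10 of them more negative in TβRII-/- cells (all genes: 6.28%), such as Mki67, the usual label of cycling cells (-0.52 ± 0.10, adjusted p = 0.000691), and Aurkb (-0.52 ± 0.10, adjusted p = 0.000987). Over these same libraries Cdkn1a, Cdkn1b, Cdkn2a and Cdkn2b had interactions of -0.07, 0.13, 0.21 and 0.07, none of which passed (adjusted p = 0.682, 0.392, 0.125 and 0.708). Whether these inhibitors and the proliferation genes are related was not tested.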

How the data were processed

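Reads were trimmed by the authors with fastp and mapped with STAR onto GRCm38.p6 (GENCODE M23), and featureCounts gave the deposited counts. These are whole numbers per transcript, not normalized and not per gene as the planned tests had assumed, and a read shared by several transcripts counts on each. By their Ensembl identifiers, 104820 of 106332 transcripts were found in GENCODE M39. The other 1512 (1.22% to 1.28% of a library's counts) were left out. The transcript with the highest total stood for each gene. Library totals were 51387170 to 69231661 transcript counts, or 15870155 to 20857618 gene counts, and their number and the 3 libraries of a group limit the precision.

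Genes were filtered with filterByExpr, scaled by TMM and fitted with edgeR 4.0.16 (quasi-likelihood test, R 4.3.3) over all 12 libraries, with the 4 groups as coefficients. P-values were adjusted by Benjamini-Hochberg over 12971 genes. A gene was called at an adjusted p under 0.05 and a fold of at least 1.5. For the interaction the adjusted p alone was used. All tests were two-sided. The steps were tested on simulated data.

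Values in every library are given for Trp53, Mdm2, Cdkn1a, Ccng1, Bax, Cdkn2a, Cdkn2b and each member called in any comparison, and from each other list at most 3 of the largest called genes. Other genes of these lists that the text names (Casp8 and Lrp2) were picked after their values were seen, and some are not reported here. The 41 genes and the lists were chosen with earlier results of these data known. Alternatives were DESeq2 1.42.0 and its size factors, other filters and limits, the sum over transcripts, fewer groups in the fit, a replicate block and leaving out each library. Promoters came from RefSeq and were searched with Python 3.11.15.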

Additional observations from a re-analysis of the deposited data

Results flagged for a closer look

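For 7 of the 41 genes, the H2O2 effects of the 2 genotypes differed by edgeR's interaction test, given here as the log2 effect in TβRII-/- cells minus that in TβRII flox/flox cells. Among the 41 genes the difference was -0.91 for Plk3, -0.58 for Fas, -0.39 for Eda2r, -0.36 for Tnfrsf10b, -0.28 for Gadd45g, -0.26 for Ei24 and 0.43 for Bcl2l11. The genotypes thus differed in all 3 death receptors, each more negative in TβRII-/- cells. Those of Ei24 and Gadd45g are close to the threshold (adjusted p = 0.0445 and 0.0429). The interaction also passed for 7 further p53 targets, 13 proliferation genes, 2 other cell-cycle inhibitors, 2 caspases or their regulators and 1 other Bcl2 family gene. For 5 of these it was -1.04 for Cdkn3, -0.58 for Perp, -0.52 for Mki67, -0.52 for Aurkb and 0.59 for Ccnd1. No group was large enough to test single libraries as outliers.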

How the results depend on the processing

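Of 26 calls among the 41 genes, checked in 532 alternatives, 490 held, 42 were lost and none reversed. Dropping the fold limit reads the main fit again and cannot lose a call, so the calls held there add no support. The limits of an unadjusted p under 0.01 and a fold of 1.5 were read from that fit as well. Most losses were at the fold limit (Mdm4, Bbc3, Gadd45a, Gadd45b) or at the adjusted p of the interaction (Ei24, Gadd45g). With the adjusted p alone and no fold limit, 30 members passed between untreated genotypes, 31 with H2O2, 20 for H2O2 in TβRII flox/flox cells and 24 in TβRII-/- cells. With an unadjusted p under 0.01 and a fold of 1.5, 1 member (Plk3) passed the interaction. Leaving out each library in turn gave 7 to 10 members between untreated genotypes, 6 to 7 with H2O2, 1 to 2 for H2O2 in TβRII flox/flox cells (2 without replicate 1 of the treated group), 2 in TβRII-/- cells and 4 to 9 for the interaction (4 without replicate 2 of H2O2-treated TβRII-/- cells). Among the named genes rerun in this way, values near 0 changed sign in 5 such fits, of Trp53 and Bax, and genes not rerun were not followed. The H2O2 effect on Trp53 in TβRII-/- cells ranged from -0.00057 to 0.055, negative without replicate 1 of the untreated or the treated group. That on Bax in TβRII flox/flox cells ranged from -0.084 to 0.0048, positive without untreated replicate 2 or treated replicate 3, and the Bax interaction from -0.12 to 0.011, positive without replicate 1 of untreated TβRII-/- cells. In each of these cases the cause was not tested.

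With the replicate number as a block, the members called were 9, 7, 1, 2 and 5 in the order of the comparisons above and the interaction, and Ei24 (adjusted p = 0.0552) and Gadd45g (0.0614) lost their interaction. Deviations of same-numbered libraries from their group means correlated at -0.10 to 0.058 over 18 pairs, so no effect shared by a number was visible. This cannot exclude that same-numbered libraries were handled together. Replicates differed by more than sampling noise, with a chi-square per gene of at least 3.58. Size factors of DESeq2 shifted the median of all genes by less than 0.1. The depth limits mainly genes below the filter, and none of the 41 is among them.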
